A study of Mus musculus with 8 samples.

Results

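The genes described here are 3 embryonic globins (Hbb-y, Hbb-bh1 and Hba-x) and a set of genes of the red cell and its precursors (Alas2, Slc4a1, Sptb, Epb42, Ahsp and Klf1), read in dorsal skin of mouse embryos that lacked or carried the glucocorticoid receptor. They were chosen by gene symbol: every probe set that the platform annotation assigns to exactly 1 gene, with that gene on the list, was taken. Of the 9 listed genes, 8 were measured in this way, with 16 of the 45037 probe sets, among 18193 genes in all. Ahsp, the chaperone of free alpha globin, had no such probe set and was not analysed here. Hbb-y, Hbb-bh1 and Slc4a1 had 3 probe sets each, Sptb and Epb42 had 2 each, and Hba-x, Alas2 and Klf1 had 1 each. The value of a gene is that of its brightest probe set over the 8 arrays, and the other probe sets are given beside it.

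The tested embryos were GR-/- (GR-null, 4 arrays, label numbers 5, 17, 25 and 26) and the controls were their GR+/+ littermates (wild-type, 4 arrays, numbers 4, 6, 28 and 29). Both were of strain B6D2/F1 and were taken by caesarean section at embryonic day 18.5. The sources used here do not describe the null allele. Nor do they say whether the arrays of a genotype are separate embryos. Sex-linked genes, given below, show that the arrays of each genotype do not all come from a single embryo. The p-values measure the spread between these samples, which may be partly technical. Values are log2 RMA expression values, in which 1 unit is a doubling of signal, and levels of different probe sets are not set against each other.

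In mouse development the embryonic globins are made mainly by primitive red cells of the yolk sac, which circulate from mid-gestation. Definitive red cells from the fetal liver, which carry adult globins, then take over. Glucocorticoid receptor signalling is known from cultured erythroid progenitors and from stress erythropoiesis, where it favours proliferation over maturation. Skin makes no red cells in quantity, so red cell transcripts would reach a skin sample mainly in its blood. The source of each signal was not tested here, and Sptb is also made in skeletal muscle. In such bulk samples, fewer cells of a type and less RNA per cell cannot be told apart.

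Some facts of all arrays bear on the results. Nr3c1, which encodes the receptor, had no overlap between the genotypes at its 3 brightest probe sets, with the GR-null arrays lower. At the brightest it read 9.21, 9.24, 9.62 and 9.61 in GR-null 5, 17, 25 and 26, against 10.24, 10.32, 10.24 and 10.24 in wild-type 4, 6, 28 and 29. The log2 differences of Nr3c1 at these probe sets were -0.84, -1.86 and -2.70, and at its 3 dimmer probe sets, where the groups overlapped, 0.27, 0.04 and 0.35. The means of the skin lists were at a like level in both genotypes. The mean of 9 keratinocyte markers lay between 12.55 and 12.81 in GR-null and between 12.45 and 12.83 in wild-type arrays. That of 9 dermal fibroblast markers lay between 13.02 and 13.19 and between 13.01 and 13.22 in the same order of genotypes. Single keratinocyte markers differed, with Trp63 higher by 0.60 and Lor at -0.48 (limma's adjusted p of 0.0372 and 0.0379). The mean of 20 skeletal muscle genes was 10.06 ± 0.43 in GR-null and 10.63 ± 0.04 in wild-type arrays (SD, n = 4 each), with GR-null 17 at 10.70 and the other GR-null arrays at 9.72 to 9.94. Apart from GR-null 17 this mean went with genotype, so fits below with it as a covariate are less precise about genotype. Xist, the RNA of the inactive X chromosome, read 12.61 in GR-null 17 and 13.22 in wild-type 6, and 5.92 to 6.38 in the other 6 arrays. Blood RNA was present in every array: 4 probe sets that the annotation assigns to several adult globin genes at once, and which therefore stand for no single gene, read 12.93 to 15.01 in GR-null and 12.55 to 15.06 in wild-type arrays.

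The upstream sequences of Hbb-y, Hba-x and Alas2 are shown because these genes had the 3 lowest log2 differences of all 8 measured genes and represent the beta-type embryonic globin, the alpha-type embryonic globin and heme synthesis. RefSeq's table for GRCm38.p6 held an upstream window for 6 of the 9 listed genes. The 250 bases before each start site are given 5′ to 3′ on the gene's strand, and capitals mark the letters CACCC (a core bound by Klf1 and related factors), GATAA (a core bound by GATA factors) and CCAAT, on either strand. The Hbb-y window is chr7:103853208-103853457 on the minus strand, the Hba-x window chr11:32276350-32276599 on the plus strand and the Alas2 window chrX:150547167-150547416 on the plus strand.
Hbb-y: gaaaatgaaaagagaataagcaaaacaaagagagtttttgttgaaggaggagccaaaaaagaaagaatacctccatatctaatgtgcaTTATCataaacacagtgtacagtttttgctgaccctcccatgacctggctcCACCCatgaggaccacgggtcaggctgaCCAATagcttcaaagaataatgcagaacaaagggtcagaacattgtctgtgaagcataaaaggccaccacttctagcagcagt
Hba-x: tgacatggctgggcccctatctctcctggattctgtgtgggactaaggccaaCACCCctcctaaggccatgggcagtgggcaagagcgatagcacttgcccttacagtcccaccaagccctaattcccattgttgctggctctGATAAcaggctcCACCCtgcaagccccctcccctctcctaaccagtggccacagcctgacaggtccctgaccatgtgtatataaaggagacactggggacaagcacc
Alas2: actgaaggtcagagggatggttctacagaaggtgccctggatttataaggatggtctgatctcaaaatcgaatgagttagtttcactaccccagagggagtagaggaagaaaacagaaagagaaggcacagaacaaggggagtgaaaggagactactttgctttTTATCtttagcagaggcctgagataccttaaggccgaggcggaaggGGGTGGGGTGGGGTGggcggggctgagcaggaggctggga

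CACCC occurred 1 time in the Hbb-y window, starting 111 bases before the start site, 2 times in that of Hba-x and 3 times in that of Alas2. GATAA occurred 1 time in each of the 3. Among 32851 upstream windows of the table, 52.0% held CACCC, 22.6% held GATAA and 33.8% held CCAAT, so none of these letters is rare. The longest run shared by the Hbb-y and Hba-x windows was GGCTCCACCC, which includes a CACCC, starts 116 and 100 bases before the start sites, and was present in 0.651% of all windows; it was looked for after the sequences were seen. AGAACA, the half-site of the glucocorticoid receptor's binding sequence, occurred 2 times in the Hbb-y window, 1 time in that of Alas2 and 0 times in that of Hba-x, against 16.1% of all windows with 1 or more and 1.81% with at least 2. The full palindromic site, in which AGAACA and its reverse complement are spaced by 3 bases, was in none of the 6 windows of these genes and in 3 of all windows. A match in these letters is a description of the window and does not show that a factor binds there.

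Among the 8 measured genes, 2 were lower in GR-null skin and 0 were higher: the embryonic beta-type globin Hbb-y, 3.62-fold, and the membrane skeleton gene Sptb, 1.39-fold. Over all genes, 1.56% were lower and 1.40% were higher by the same test, limma with Benjamini-Hochberg adjustment over all genes and a threshold of 0.05, in all 2.96% of genes. At an unadjusted p below 0.05 by limma, 3 of the 8 were lower and 0 higher. Of all 18193 genes, 2027 were lower and 1909 higher at that cut, 21.6% in either direction. Without 1 array the lower calls among the 8 genes lay between 0 and 2: 0 without GR-null 5, 25 or 26 or wild-type 4 or 28, and 1 without wild-type 29. Of the 16 probe sets, 3 were lower and 0 higher, where 1.63% and 2.22% of all probe sets were, in all 3.85%; groups did not overlap, with GR-null lower, at 5.82% of all probe sets and, in either direction, for 13.0% of all genes. The median log2 difference of the 8 genes was -0.30 and that of all genes -0.0045.

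**Figure D1:**
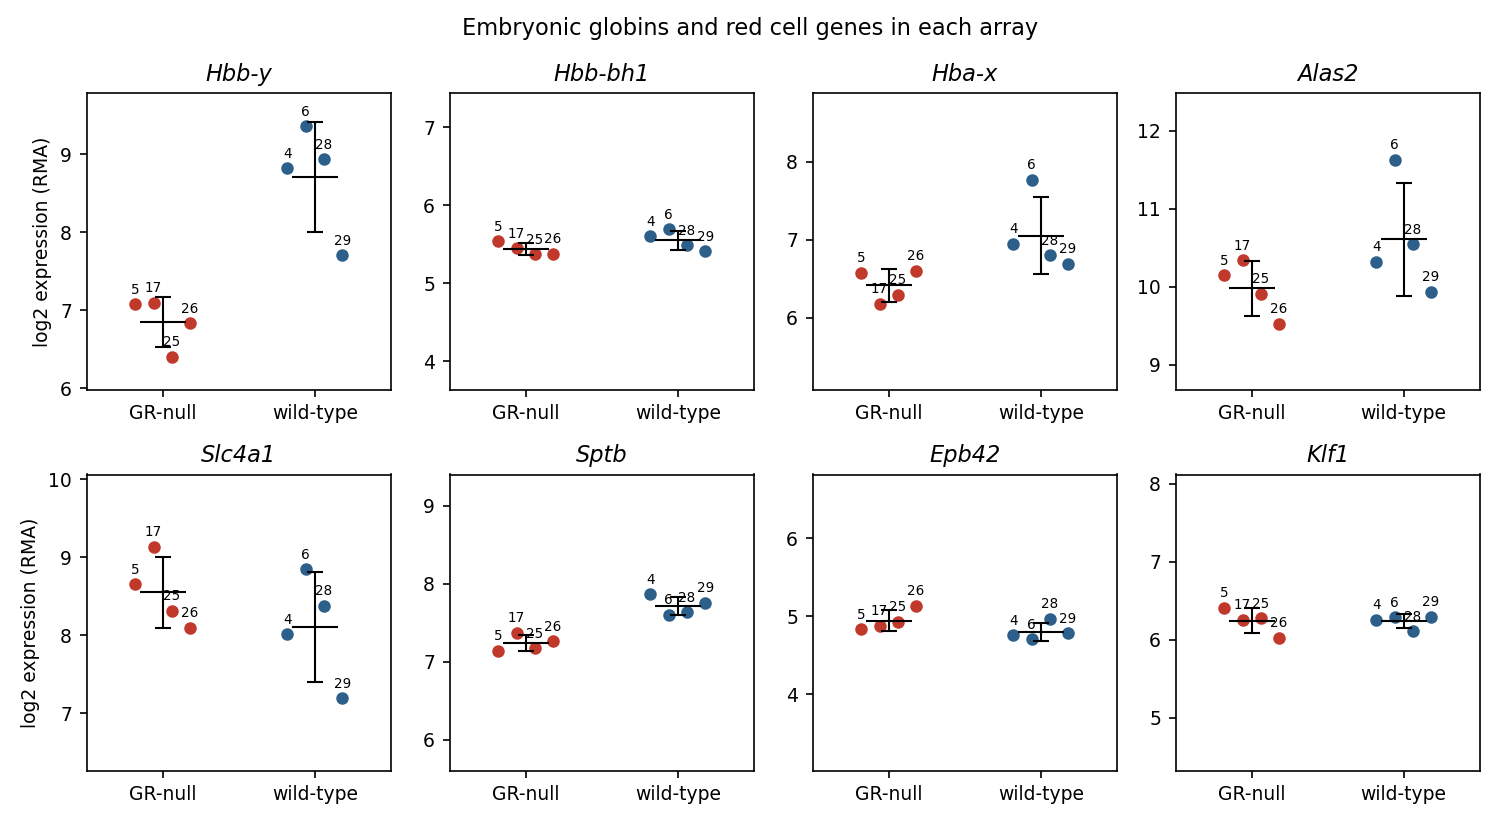
Log2 expression (RMA) of the 8 measured genes at the brightest probe set of each, with 1 point per array (numbers are those of the labels), GR-null left and wild-type right, and bars for the mean ± SD (n = 4 each). All panels span the same number of log2 units. The groups are apart for Hbb-y, with no GR-null array above 7.10 and no wild-type array below 7.71, and also for Hba-x and Sptb, while Hbb-bh1, Alas2, Slc4a1, Epb42 and Klf1 overlap.

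Of the embryonic globins, Hbb-y, the epsilon-type chain of primitive red cells, read 7.07, 7.10, 6.40 and 6.83 in GR-null 5, 17, 25 and 26, against 8.82, 9.36, 8.94 and 7.71 in wild-type 4, 6, 28 and 29. Every GR-null array was below every wild-type array, and wild-type 29 stood nearest to the GR-null group. Hbb-y fell by 1.86 ± 0.32 log2 (SE, n = 4 per group, 95% interval -2.58 to -1.13, adjusted p = 0.0241 by limma). At its second brightest probe set Hbb-y read 6.97, 6.82, 5.91 and 6.62 in the GR-null arrays and 8.63, 9.28, 8.83 and 7.49 in the wild-type arrays, and fell by 1.97 ± 0.37 (adjusted p = 0.0295 over all probe sets). Its dimmest probe set read 5.63, 5.22, 5.23 and 5.96 in the GR-null arrays against 6.16, 7.27, 6.15 and 5.53 in the wild-type arrays. There the groups overlapped and the log2 difference of Hbb-y was -0.77 ± 0.33 (adjusted p = 0.22 over all probe sets).

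The names of the 2 brighter Hbb-y probe sets end in _x_at, a mark of probes that can also take up related transcripts, while that of the dimmest does not. The call for Hbb-y therefore rests on probe sets of this kind, and without them its adjusted p was 0.225. How much of their signal came from other beta globins was not tested. The jointly annotated adult globin probe sets had log2 differences between -0.12 and -0.010, with adjusted p of 0.787 to 0.958, at levels near the top of the scale. The call also ended without GR-null 5, 25 or 26 or wild-type 4 or 28, with adjusted p of 0.0582, 0.0852, 0.0684, 0.0579 and 0.0733. The log2 differences of these fits lay between -1.93 and -1.71. With the skeletal muscle mean as a covariate the Hbb-y call ended as well (-1.79 ± 0.49, limma's adjusted p = 0.199). There the log2 difference stayed close to the -1.86 of the first fit, while its SE rose from 0.32.

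Hba-x, the zeta chain that pairs with the embryonic beta-type chains, read 6.58, 6.18, 6.30 and 6.60 in the GR-null arrays and 6.95, 7.77, 6.80 and 6.69 in the wild-type arrays. Every GR-null array was below every wild-type array, as for 6.30% of all genes, by a gap that was small between GR-null 26 and wild-type 29. Its log2 difference was -0.64 ± 0.22 (95% interval -1.15 to -0.13), which did not pass the threshold (adjusted p = 0.144). Wild-type 6 was the highest of the 8 arrays for Hba-x, as it was for Hbb-y, and without it the log2 difference of Hba-x was -0.40 (adjusted p = 0.13).

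Hbb-bh1, the other beta-type chain of primitive red cells and the neighbour of Hbb-y on chromosome 7, was dim. It read 5.54, 5.45, 5.37 and 5.38 in the GR-null arrays and 5.60, 5.69, 5.49 and 5.41 in the wild-type arrays, with overlapping groups. Its log2 difference was -0.11 ± 0.09 (95% interval -0.31 to 0.08, adjusted p = 0.497). The other Hbb-bh1 probe sets lay between 4.10 and 4.30 in GR-null and between 4.16 and 4.64 in wild-type arrays, with differences of -0.26 and -0.18 and adjusted p of 0.216 and 0.36 over all probe sets. All 3 probe sets had a negative difference, and a change of the size seen for Hbb-y lies outside the 95% interval of each, although values near the background are compressed by RMA.

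**Figure D2:**
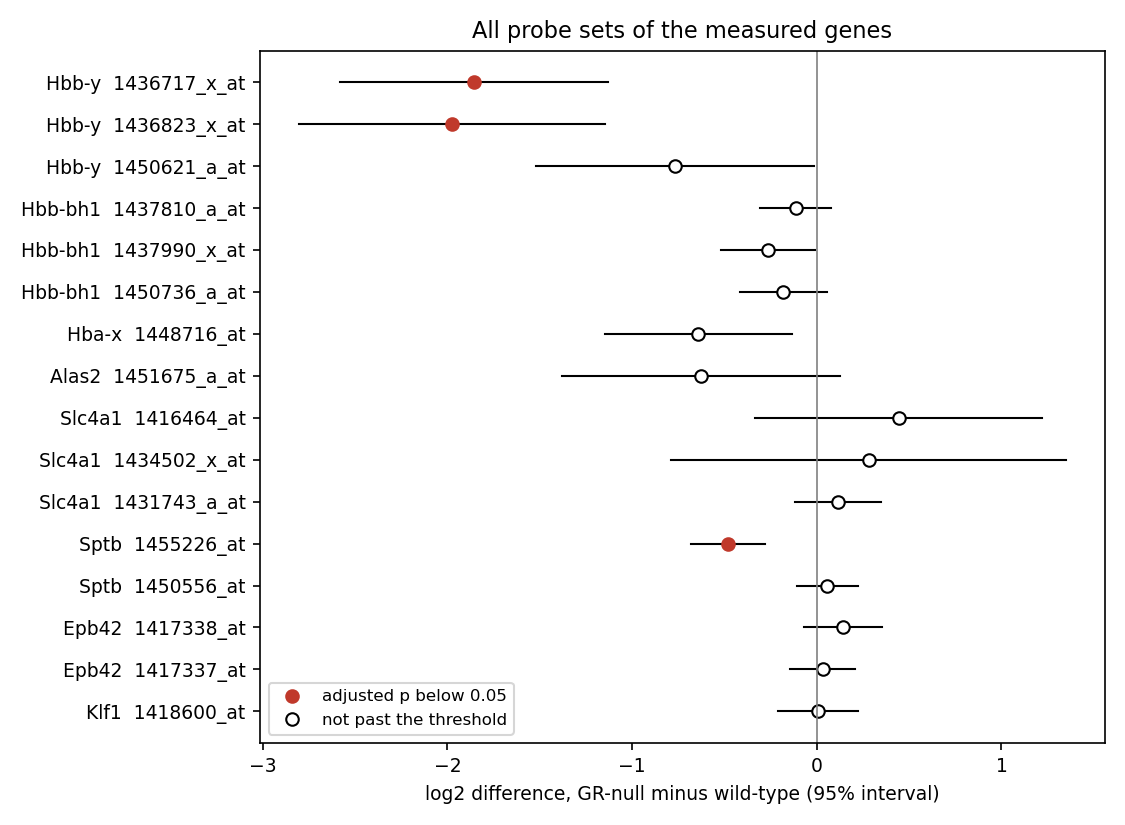
Log2 difference, GR-null minus wild-type, at each of the 16 probe sets, with its 95% interval, and filled points for an adjusted p below 0.05 over all probe sets. The 2 upper Hbb-y probe sets and 1 of the Sptb probe sets are past the threshold, and every embryonic globin probe set lies below 0.

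Of the other red cell genes, Alas2, the erythroid enzyme that starts heme synthesis, read 10.15, 10.34, 9.91 and 9.53 in the GR-null arrays and 10.32, 11.63, 10.54 and 9.94 in the wild-type arrays. The groups overlapped, and the log2 difference of -0.63 ± 0.33 (95% interval -1.38 to 0.13) did not pass the threshold (adjusted p = 0.32). Alas2 lies on the X chromosome, and its highest value was that of wild-type 6, one of the arrays with a high Xist level. Wild-type 6 was also highest for Hbb-y, Hbb-bh1 and Hba-x, which lie on chromosomes 7 and 11. It was not highest for Slc4a1, Sptb, Epb42 or Klf1. The log2 difference of Alas2 was -0.29 without wild-type 6 (adjusted p = 0.494), -0.41 without both arrays with a high Xist level (adjusted p = 0.246) and -0.68 with the mean of Y-linked genes as a covariate (adjusted p = 0.123).

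Slc4a1, the band 3 anion exchanger that is the main integral protein of the red cell membrane, had its higher mean in GR-null arrays. It read 8.65, 9.13, 8.31 and 8.10 in the GR-null arrays and 8.01, 8.84, 8.38 and 7.19 in the wild-type arrays. The log2 difference was 0.44 ± 0.34 (95% interval -0.33 to 1.22, adjusted p = 0.516), and wild-type 29 was the lowest array. It was 0.14 without wild-type 29, 0.25 without GR-null 17, 0.69 without wild-type 6 and 0.82 with the muscle covariate, none past the threshold. The second brightest Slc4a1 probe set spanned 6.91 to 9.02 in GR-null and 6.65 to 8.38 in wild-type arrays, with a difference of 0.28, and the dimmest 4.33 to 4.65 and 4.28 to 4.58, with a difference of 0.11. Neither was past the threshold (adjusted p of 0.798 and 0.588 over all probe sets).

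Sptb, the beta chain of spectrin in the red cell membrane skeleton, read 7.14, 7.37, 7.17 and 7.26 in the GR-null arrays and 7.86, 7.60, 7.64 and 7.76 in the wild-type arrays. The groups did not overlap and were tight, with SDs of 0.11 and 0.12. Sptb fell by 0.48 ± 0.09 log2 (SE, n = 4 per group, 95% interval -0.68 to -0.28, adjusted p = 0.0304 by limma). The other Sptb probe set read 6.51 to 6.60 in GR-null and 6.45 to 6.64 in wild-type arrays, with a difference of 0.06 ± 0.07 (adjusted p = 0.723 over all probe sets). Sptb is also made in skeletal muscle, and the mean of the muscle list was lower in GR-null arrays (10.06 against 10.63 in wild-type arrays). With that mean as a covariate the log2 difference of Sptb was -0.36 ± 0.12 (adjusted p = 0.283), and the part of muscle in it was not tested further. The call kept its side of the threshold without GR-null 17 or wild-type 6, and missed it without each of the other arrays (adjusted p from 0.0612 to 0.106).

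Epb42, protein 4.2, which ties band 3 to the membrane skeleton, and Klf1, the transcription factor that switches on adult beta globin and many red cell genes, were dim and close between the genotypes. Epb42 read 4.84, 4.88, 4.93 and 5.14 in the GR-null arrays and 4.76, 4.70, 4.97 and 4.78 in the wild-type arrays, with a log2 difference of 0.14 ± 0.09 (95% interval -0.07 to 0.35, adjusted p = 0.434). Its other probe set read between 3.53 and 3.81 over all arrays. Klf1 read 6.41, 6.26, 6.27 and 6.03 in the GR-null arrays and 6.25, 6.29, 6.11 and 6.30 in the wild-type arrays, with a log2 difference of 0.0057 ± 0.096 (95% interval -0.21 to 0.22, adjusted p = 0.985). The spread over arrays set the genes apart too: the range over the 8 arrays was 2.96 log2 for Hbb-y, 2.11 for Alas2, 1.94 for Slc4a1 and 1.59 for Hba-x, and 0.72, 0.43, 0.38 and 0.32 for Sptb, Epb42, Klf1 and Hbb-bh1.

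The embryonic globins were then set against the other red cell genes within each array, as the mean deviation of each set from its level over the 8 arrays. The embryonic globins deviated by -0.27, -0.43, -0.65 and -0.40 log2 in GR-null 5, 17, 25 and 26, and by 0.46, 0.94, 0.41 and -0.07 in wild-type 4, 6, 28 and 29. The 5 other genes deviated by -0.0045, 0.16, -0.12 and -0.23 in the GR-null arrays and by -0.0019, 0.37, 0.08 and -0.25 in the wild-type arrays. At the brightest probe set of each gene the globins were thus apart by genotype, while the other genes overlapped. Among the latter, GR-null 17 was above 3 of the wild-type arrays. The difference between the sets was -0.27, -0.58, -0.52 and -0.16 in the GR-null arrays and 0.46, 0.57, 0.32 and 0.18 in the wild-type arrays, a genotype difference of -0.77 (means of -0.38 ± 0.20 and 0.38 ± 0.17, SD, n = 4 each). This score over chosen genes was not tested, and Hbb-y carries most of it: with the cross-hybridising kinds of probe set (_x_at and _s_at) left out, the genotype difference was -0.40. The Hbb-y probe set left was its dimmest, at which the genotypes overlapped (5.96 in GR-null 26, 5.53 in wild-type 29). The values by array above thus rest on an _x_at probe set of Hbb-y.

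**Figure D3:**
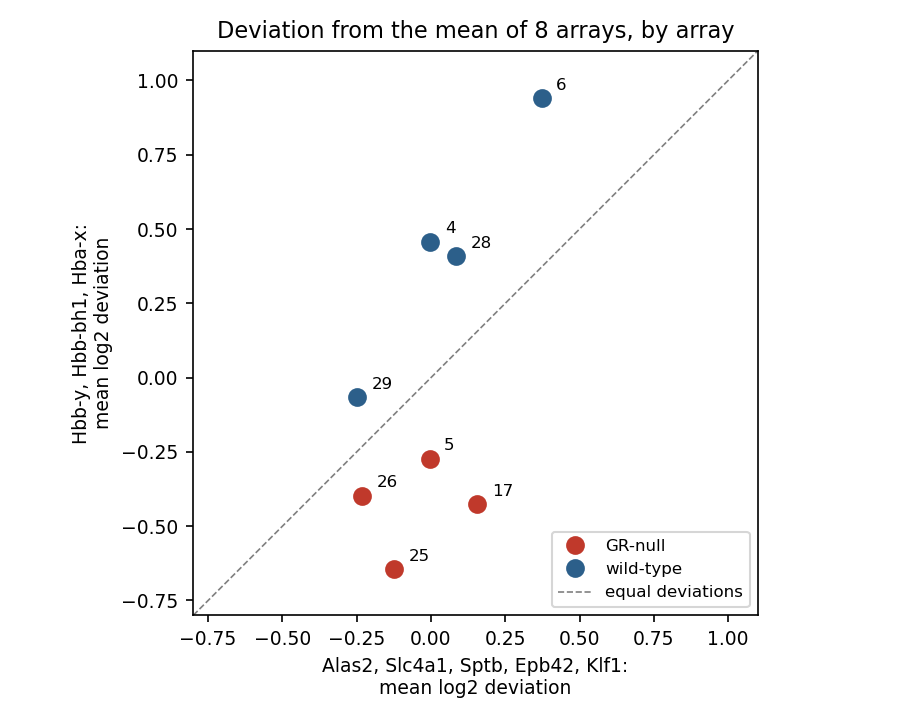
Mean log2 deviation of the 3 embryonic globins (vertical) against that of 5 other red cell genes (horizontal), each from its mean over the 8 arrays, with 1 point per array and label numbers beside it. The 4 GR-null arrays lie below the dashed line of equal deviations and the 4 wild-type arrays above it. Each gene is read at its brightest probe set, which for Hbb-y is an _x_at probe set.

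A fit of all genes with the mean of the 5 other red cell genes as a covariate compared the globins at a given level of those genes. In it Hbb-y fell by 1.63 ± 0.19 log2 (95% interval -2.08 to -1.19, adjusted p = 0.0161 by limma), where 1.34% of all genes were called. Hba-x had a log2 difference of -0.54 ± 0.21 (adjusted p = 0.217) and Hbb-bh1 of -0.08 ± 0.08 (adjusted p = 0.655), neither past the threshold. With the other genes of the red cell membrane list as the covariate, not all of them particular to red cells, Hbb-y was at -1.88 (adjusted p = 0.034). With the mean of Alas2 and Slc4a1, chosen after seeing the data, it was at -1.78 (adjusted p = 0.00954). With the mean of the 5 genes, the Hbb-y call ended without GR-null 5 (0.055), GR-null 25 (0.0609) or wild-type 28 (0.058). All these fits read Hbb-y at its brightest probe set, of the _x_at kind. None was run at its dimmest probe set, where the groups overlapped without a covariate. Whether the Hbb-y effect differs from those of the other 2 globins was not tested.

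**Figure D4:**
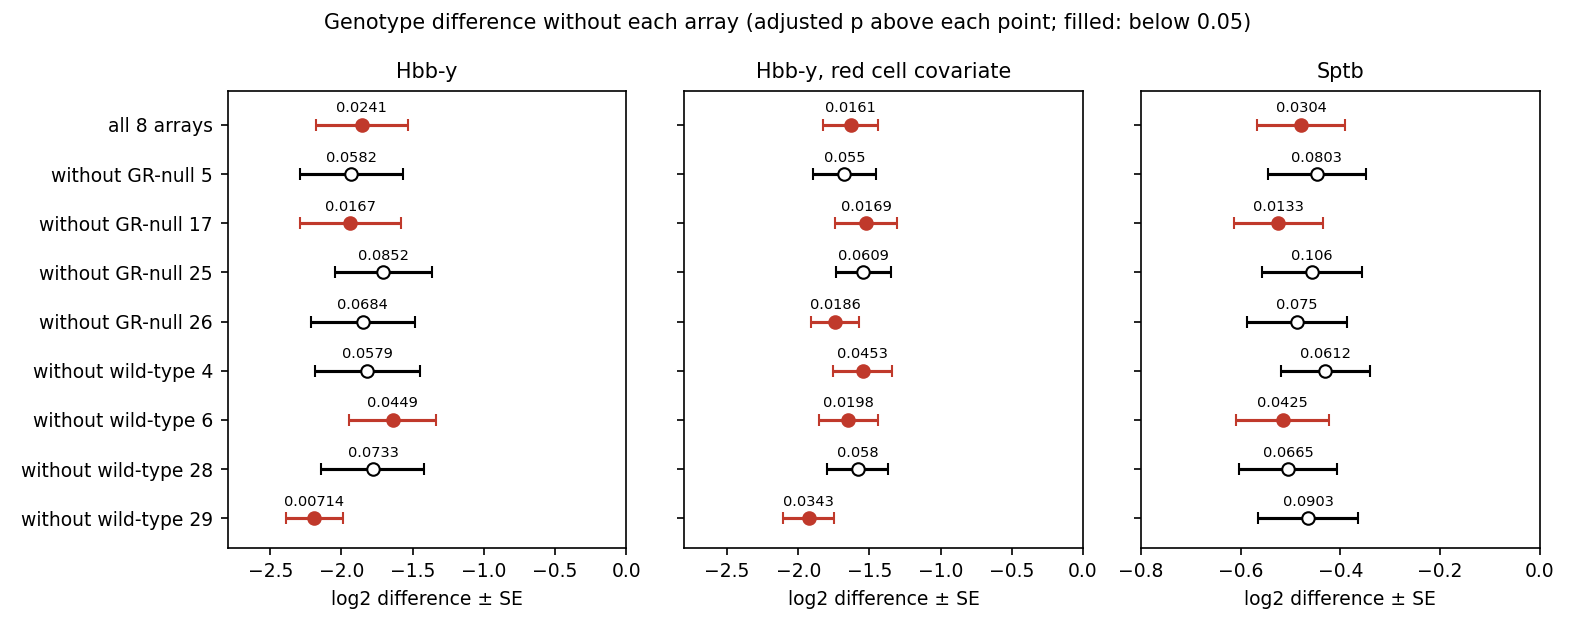
Log2 difference, GR-null minus wild-type, ± SE with all 8 arrays and without each array in turn, for Hbb-y, for Hbb-y with the red cell covariate and for Sptb. The adjusted p stands above each point, filled where it is below 0.05; Hbb-y passes in 3 of the 8 reduced fits and Sptb in 2.

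Other genes of the red cell gave few calls, as did all genes. Over 8 lists with 89 measured genes beside those above, 1 gene was lower, 0 were higher and 88 were not past the threshold, against 1.56% and 1.40% of all genes, with a median log2 difference of -0.0078. Some listed genes, such as Tmod1, are not particular to red cells, so the lists do not measure the amount of red cells. At an unadjusted p below 0.05, limma gave 9 lower and 8 higher, where 2027 of all 18193 genes were lower and 1909 higher. Without GR-null 17 the adjusted calls were 9 lower and 2 higher, while over all genes the same fit called 948 lower and 692 higher, against 284 and 255 with all arrays. Without wild-type 4 the lists gave 2 lower and 0 higher, and all genes 191 and 104. The gene that passed was Nfe2, whose product is the erythroid and megakaryocytic subunit of the NF-E2 factor that acts on the globin locus. Nfe2 read 5.65, 5.58, 5.52 and 5.00 in the GR-null arrays and 6.57, 6.74, 7.01 and 6.88 in the wild-type arrays, with no overlap. Nfe2 fell by 1.36 ± 0.16 log2 (SE of 4 arrays per genotype, limma's adjusted p = 0.00611) and kept its call without any 1 array (adjusted p from 0.00499 to 0.0257). With the muscle covariate Nfe2 was at -1.27 ± 0.23 (adjusted p = 0.0697).

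The other 15 erythroid transcription factors and cofactors were not past the threshold, nor were any of 15 heme genes, 17 membrane and surface genes, 9 iron uptake genes, 15 red cell enzymes and maturation genes, 9 genes of erythropoietin and stem cell factor signalling and 6 erythroblast island genes. In each of these lists the gene with the smallest p is given. Cpox, which acts late in heme synthesis, had a log2 difference of -0.53 (adjusted p = 0.0711), and Tmod1, which caps actin filaments of the membrane skeleton and also acts in muscle, of -0.79 (adjusted p = 0.0752). Ireb2, which regulates iron uptake, was at 0.29 (adjusted p = 0.0752), the peroxiredoxin Prdx2 at 0.34 (adjusted p = 0.305), the cytokine feedback inhibitor Cish at -0.33 (adjusted p = 0.141) and Maea, an erythroblast attachment protein, at 0.34 (adjusted p = 0.0683). The adult and other globins read by a probe set of their own were 3, with differences of 0.33 for Hba-a2, -0.37 for Hbb-b2 and -0.07 for Hba-a1 (adjusted p of 0.22, 0.546 and 0.644). Hba-a2 and Hba-a1 were dim at those probe sets, between 4.22 and 5.64 over the GR-null and wild-type arrays, so they do not report the abundant adult alpha globin.

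**Figure D5:**
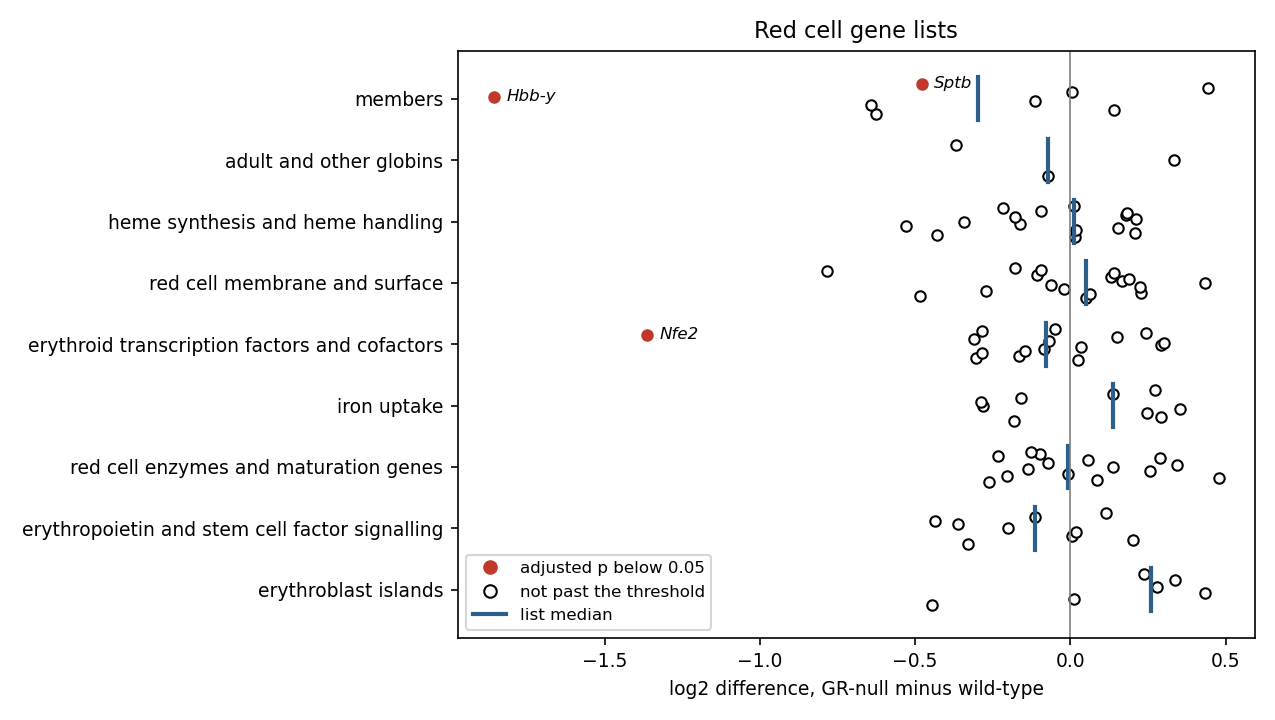
Log2 difference, GR-null minus wild-type, of the 8 measured genes (top) and of each gene in 8 red cell lists, with 1 point per gene, filled where the adjusted p is below 0.05, and a bar at the median. Hbb-y, Sptb and Nfe2 are the genes past the threshold, and the other points lie between -0.79 and 0.48.

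Markers of other blood cells were read beside these genes. Of 9 measured megakaryocyte and platelet genes, 2 were lower, 0 higher and 7 not past the threshold, against 1.56% and 1.40% of all genes. The integrin Itgb3 fell by 1.22 log2 (adjusted p = 0.0203), with GR-null arrays between 6.38 and 6.82 and wild-type arrays between 7.41 and 8.36, and kept its call in 6 of the 8 fits without 1 array. Vwf, the clotting factor of platelets and endothelium, fell by 1.07 log2 (adjusted p = 0.0466) and kept its call in 1 of those 8 fits. With the muscle covariate neither was past the threshold: Itgb3 was at -1.12 (adjusted p = 0.193) and Vwf at -0.46 (adjusted p = 0.404). The mean of that list lay between 6.84 and 7.01 in GR-null and between 7.08 and 7.42 in wild-type arrays, so it too was apart by genotype. Its median log2 difference was only -0.046. At an unadjusted p below 0.05, limma gave 3 lower and 1 higher, where 2027 of all 18193 genes were lower and 1909 higher (21.6% in either direction). The other 7 genes were at -0.43 (Pf4), -0.25 (Ppbp), -0.05 (Itga2b), -0.02 (Treml1), 0.05 (Gp1bb), 0.11 (Gp9) and 0.21 (Gp5). The part of this list in the Hbb-y and Nfe2 results was not tested. The leukocyte list gave 0 calls in 10 genes by limma, with 2 lower and 2 higher at an unadjusted p below 0.05, and its mean lay between 8.52 and 8.87 in GR-null and between 8.68 and 9.06 in wild-type arrays.

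The genes with the profile most like that of Hbb-y over the 8 arrays were found by the root mean square difference between log2 profiles, each centred on its own mean. They were Mal2 (0.34), Gcsam (0.46), Miat (0.50), Gfi1 (0.53) and Otop3 (0.54). Each was lower in GR-null arrays with no overlap, with log2 differences from -1.88 to -1.28, which the likeness to Hbb-y all but requires. None of the other 7 measured genes of the main set was among them: of these 7, Alas2 was nearest at 0.70, followed by Hba-x at 0.71, and Slc4a1 was farthest at 1.17. Hba-x in turn was nearer to Alas2 (0.36) than to Hbb-y (0.71). The profiles were not scaled for spread, so a gene with a small range cannot come near Hbb-y whatever its pattern. The range over the arrays was 2.96 log2 for Hbb-y and 0.32 for Hbb-bh1.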

How the data were processed

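The authors deposited 1 log2 value per probe set and array, computed with RMA per the submitters' processing notes, which name no version. RMA equalises the intensity distributions of the arrays, so a shift of most transcripts could not be seen, and array medians lay between 6.46 and 6.52. Of 45101 probe sets, 64 controls were left out; 34945 carried 1 symbol, 932 several and 9160 none. The number of arrays limits the precision.

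Genotype was fitted to all probe sets with limma 3.58.1 in R 4.3.3 (lmFit and eBayes, two-sided), and Benjamini-Hochberg adjustment ran over 18193 genes or over 45037 probe sets. The procedure was tested on simulated data. The genes, lists, tests and alternatives were chosen with earlier results of these data known. Named outside the main set, by rule, were Nr3c1, up to 3 called genes with the largest change in each list, otherwise the gene with the smallest p, and the 5 most similar profiles to Hbb-y and to Alas2. Alternatives were another prior, a filter on dim genes, quantile normalization of the RMA values, array weights, Y-linked, muscle and red cell covariates, other probe set choices, a threshold of 0.01 and leaving out arrays.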

Additional observations from a re-analysis of the deposited data

Results flagged for a closer look

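In a group of 4, an array whose gap to its nearest neighbour took up most of the group's range was picked out. Chance does this in about 1 group in 20, and 5 of the 68 groups examined were picked out. At the dimmest Slc4a1 probe set GR-null 17 read 4.33, against 4.63 to 4.65 in the other GR-null arrays. At the dimmer Sptb probe set wild-type 4 read 6.64, against 6.45 to 6.47 in the other wild-type arrays. Cpox read 8.74 in GR-null 17 and 8.22 to 8.29 in the other GR-null arrays, and Ireb2 read 9.56 in GR-null 25 and 9.75 to 9.78 in the others. Prtn3, a protease of the neutrophil lineage, read 6.40 in GR-null 17 and 6.06 to 6.11 in the other GR-null arrays. GR-null 17 thus accounts for 3 of the 5, and it also had the highest muscle mean and the high Xist level within its genotype.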

How the results depend on the processing

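The labels pair no arrays across the genotypes and name no litter, so the fit holds neither pairs nor litters. Over 8 genes and their alternatives, 119 results kept direction and side of the threshold, 15 lost the call and 5, all of Klf1, changed sign. Only Hbb-y and Sptb had a call to lose. Hbb-y lost it in 7 of its 18 alternatives and Sptb in 8 of its 17, so most of the 119 belong to genes never called. Klf1 was at -0.0044 after a further quantile normalization, at -0.0078 with the muscle covariate and between -0.050 and 0.077 without 1 array. The 2 lower calls among the 8 genes became 0 with the muscle covariate, 0 at a threshold of 0.01, 1 above the median level (where Sptb was not tested), 1 with the mean of all probe sets and 1 without cross-hybridising probe sets, and lay between 0 and 2 without 1 array. Over all genes, 255 rises and 284 falls became 398 rises above the median level, 882 and 1062 with array weights, 71 and 57 with the muscle covariate, 525 rises with the mean of all probe sets, 13 and 33 at a threshold of 0.01, and 751 and 964 without both arrays with a high Xist level, an alternative added after seeing the data. Without 1 array they lay between 19 and 692 rises and between 60 and 948 falls, the highest without GR-null 17. The red cell lists gave 0 to 2 rises and 1 to 9 falls without 1 array, the most without GR-null 17, with 1 rise with the mean of all probe sets and 0 falls with the muscle covariate. The globin minus red cell difference was -0.40 without cross-hybridising probe sets. Hbb-y with the red cell covariate lay between -1.93 and -1.52 without 1 array. Hba-x, never past the threshold, was at -0.32 without the arrays with a high Xist level. The cause was not tested for any of these shifts. Dim genes such as Hbb-bh1 and Epb42 lie where the signal is near the background, and depth of sequencing has no part in arrays.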

Other observations

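The genes with the profile most like that of Alas2 over the 8 arrays were Fam220a (root mean square difference of 0.18 log2), Gpc3 (0.31), Nenf (0.32), Cyp26b1 (0.32) and Dkc1 (0.32). All had their highest value in wild-type 6, and none passed the threshold. Fam220a read 9.13 in wild-type 6 and between 7.59 and 8.35 in the other arrays, with a log2 difference of -0.47 (adjusted p = 0.303).

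Of the further cell type lists, blood endothelium gave 0 calls in 10 genes by limma, with 4 lower and 0 higher at an unadjusted p below 0.05. At that cut, 2027 of all 18193 genes were lower and 1909 higher, which also stands beside the unadjusted counts that follow. The endothelial gene with the smallest p was Robo4 at -0.34 (adjusted p = 0.0749). The leukocyte gene with the smallest p was Laptm5 at -0.94 (adjusted p = 0.0655). The neutrophil lineage gave 0 calls in 10 genes, with 1 lower and 1 higher unadjusted, and its mean spanned 5.74 to 7.41 in GR-null and 5.99 to 6.91 in wild-type arrays. The skeletal muscle list gave 1 lower call in 20, the embryonic myosin Myh3 at -0.55 (adjusted p = 0.0234), with 10 lower and 0 higher unadjusted and a median log2 difference of -0.44. Of 9 keratinocyte genes, the basal layer factor Trp63 was higher by 0.60 (adjusted p = 0.0372) and the cornified envelope gene Lor was lower, at -0.48 (adjusted p = 0.0379). Over all genes, 2.96% were called in either direction. Without 1 array, Myh3 lost its call in 5 of 8 fits and Trp63 and Lor in 6 of 8 each, and with the muscle covariate none of the 3 passed (adjusted p of 0.216, 0.244 and 0.162). Of 9 fibroblast genes 0 were called by limma, with 1 lower and 2 higher unadjusted.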
